A study of Mus musculus with 8 samples.

Results

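The p53 pathway genes described here are 31 genes of the 23467 in the table, taken by their symbols and not by a threshold on their values. They were looked up in all 8 RNA-sequencing libraries and divided by role into 4 regulators, 6 arrest genes, 12 apoptosis genes, 4 repair genes and 5 stress genes. The roles were fixed with earlier results of these data known, so comparisons between roles are descriptions. All 31 were expressed highly enough to be tested, with a mean of at least 1 RPKM (reads scaled by gene length and library size) over the libraries. p53, the product of *Trp53*, is a transcription factor that is kept low by MDM2 and accumulates when DNA is damaged or cells are stressed. It then switches on genes that stop the cell cycle, kill the cell or repair the DNA, together with *Mdm2* itself, which closes a feedback loop. Hepatocytes with abnormal ploidy or damaged DNA are known to engage this pathway, and p21, encoded by *Cdkn1a*, is its best-known arrest gene in liver.

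The cells came from E14.5 livers of mice of the strain B6;129 mixed. Control cells were wild type, and L1L2_Alb cells carried the genotype Lats1-/-;Lats2f/fl;Alb-cre, in which *Lats2* is deleted by a Cre recombinase under the albumin promoter, active in cells of the hepatocyte lineage. Cultured hepatoblasts (iHBs) gave 1 control and 1 L1L2_Alb library, hepatocytes differentiated from them with 12.5 ng per ml of Oncostatin M for 5 days by the labels, a length that the study's methods give differently (iHPs) 1 control and 2 L1L2_Alb libraries, and biliary epithelial cells differentiated in Matrigel for 14 days (iBECs) 1 control and 2 L1L2_Alb libraries. The labels do not say whether libraries of a condition came from separate embryos or cultures, so p-values measure the spread between these libraries only. *Lats1* was at 10.6 RPKM in the control and 13.9 RPKM in the L1L2_Alb iHB library, at 11.2 RPKM against 22.7 and 7.12 RPKM in iHPs and at 5.38 RPKM against 9.69 and 9.91 RPKM in iBECs. *Lats2* was at 9.23 RPKM against 19.7 RPKM in iHBs, at 10.1 RPKM against 17.7 and 27.6 RPKM in iHPs and at 6.90 RPKM against 10.9 and 12.4 RPKM in iBECs. *Lats1* was lower than its control in 1 of the 5 L1L2_Alb libraries and *Lats2* in 0 of 5 (log2 fold change 0.90, limma adjusted p = 0.0312). Values per gene do not separate the deleted exons from the rest, so they do not check the genotype. *Ctgf* and *Cyr61*, which YAP switches on when LATS kinases are absent, were called higher in 5 of 5 L1L2_Alb libraries, with log2 fold changes of 1.73 (limma adjusted p = 0.00796) and 1.93 (limma adjusted p = 0.00222). L1L2_Alb means here the libraries labelled so, in every direction that is given.

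The libraries held between 18436865 and 33229075 reads, and 22 of the 31 genes had values that came out as whole reads within a tolerance of 0.02. The fewest were the 91 reads of *Bbc3* in L1L2_Alb iHP replicate 1, a counting error of 10.5%. L1L2_Alb iHP replicate 2 stood apart. Against replicate 1, the 2519 genes of shortest exon length, up to 2129 bases, were higher there by a median of 0.19 on the log2 scale, and the 2518 longest, from 7260 bases, had a median of -0.14. Several p53 pathway genes were at their highest there, so that values in iHPs are given for each library and with that library left out.

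Promoter sequence is shown for the genes that passed the genotype test and held a p53 half-site, the 10-base word bound by a p53 dimer. Of the 31 genes, 23 had RefSeq start sites (GRCm38.p6), with 32 windows of the 250 bases before a start. An exact half-site, which reads alike on both strands, was found in 11 of the 32 windows (34.4%) and in 7.13% of all 32851 windows. A pair of half-sites up to 13 bases apart with at most 3 mismatches in all, none of them in the central bases, was found in 8 windows (25.0%) against 5.62% of all windows. Some genes had more than 1 window. Of the 7 genes that passed the test, *Cdkn1a*, *Mdm2*, *Ccng1* and *Polk* held an exact half-site, *Phlda3* held none, and *Perp* and *Tnfrsf10b* were not matched. The sequences run 5′ to 3′ along the gene, without bases that GENCODE gives as exonic, and capitals mark half-sites, a match of letters that is a description and not a measured site. They lie at chr17:29090729-29090975 (plus strand) for 1 of the 2 starts of *Cdkn1a*, chr10:117710759-117711008 (minus strand) for *Mdm2*, chr11:40755312-40755536 (minus strand) for *Ccng1* and chr13:96519188-96519437 (minus strand) for 1 of the 2 starts of *Polk*.
Cdkn1a: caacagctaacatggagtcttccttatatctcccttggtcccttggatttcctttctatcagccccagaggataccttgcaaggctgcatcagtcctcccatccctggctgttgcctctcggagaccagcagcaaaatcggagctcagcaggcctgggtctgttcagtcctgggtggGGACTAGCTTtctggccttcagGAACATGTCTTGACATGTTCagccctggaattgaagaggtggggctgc
Mdm2: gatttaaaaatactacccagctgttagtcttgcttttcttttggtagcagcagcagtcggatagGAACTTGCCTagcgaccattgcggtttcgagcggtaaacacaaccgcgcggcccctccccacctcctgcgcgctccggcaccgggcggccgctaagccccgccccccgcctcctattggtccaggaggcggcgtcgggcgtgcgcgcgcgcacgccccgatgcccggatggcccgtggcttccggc
Ccng1: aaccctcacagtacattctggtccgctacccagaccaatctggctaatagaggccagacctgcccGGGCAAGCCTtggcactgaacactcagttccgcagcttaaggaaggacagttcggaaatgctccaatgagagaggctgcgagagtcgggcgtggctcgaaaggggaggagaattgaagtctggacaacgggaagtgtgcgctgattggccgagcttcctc
Polk: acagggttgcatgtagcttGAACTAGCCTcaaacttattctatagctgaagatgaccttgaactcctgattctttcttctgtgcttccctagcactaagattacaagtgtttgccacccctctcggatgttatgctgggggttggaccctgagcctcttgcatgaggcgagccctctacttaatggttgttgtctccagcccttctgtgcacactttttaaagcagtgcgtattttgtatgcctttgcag
The *Cdkn1a* window held a pair of exact half-sites 12 bases apart, 73 bases before the start, and a pair with no spacer and 1 mismatch, 51 bases before it. In the windows of *Mdm2*, *Ccng1* and *Polk* a single half-site stood 186, 185 and 231 bases before the start.

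Across the 3 stages, 7 of the 31 genes rose in L1L2_Alb libraries and none fell. They were the regulators *Mdm2* and *Ccng1*, the arrest gene *Cdkn1a*, the apoptosis genes *Perp*, *Tnfrsf10b* and *Phlda3* and the repair gene *Polk*. Genotype was tested by limma on log2(RPKM + 1) with a term for each stage, and p was corrected by the Benjamini-Hochberg method over all 13421 genes tested, where an adjusted p under 0.05 is called here. Of all genes tested 9.57% were called, 6.20% higher and 3.37% lower. The 7 genes make up 22.6% of the 31. At an unadjusted p under 0.05, 15 of the 31 were higher and 0 lower, against 2149 higher and 1375 lower of the 13421 genes tested. Of all genes 1284 were called, 832 of them higher, and 612 of 1187 after upper-quartile scaling. The median log2 fold change of the 31 genes was 0.51, in a range from -0.52 for *Trp53* to 2.54 for *Perp*, and that of all genes tested was 0.058.

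**Figure D1:**
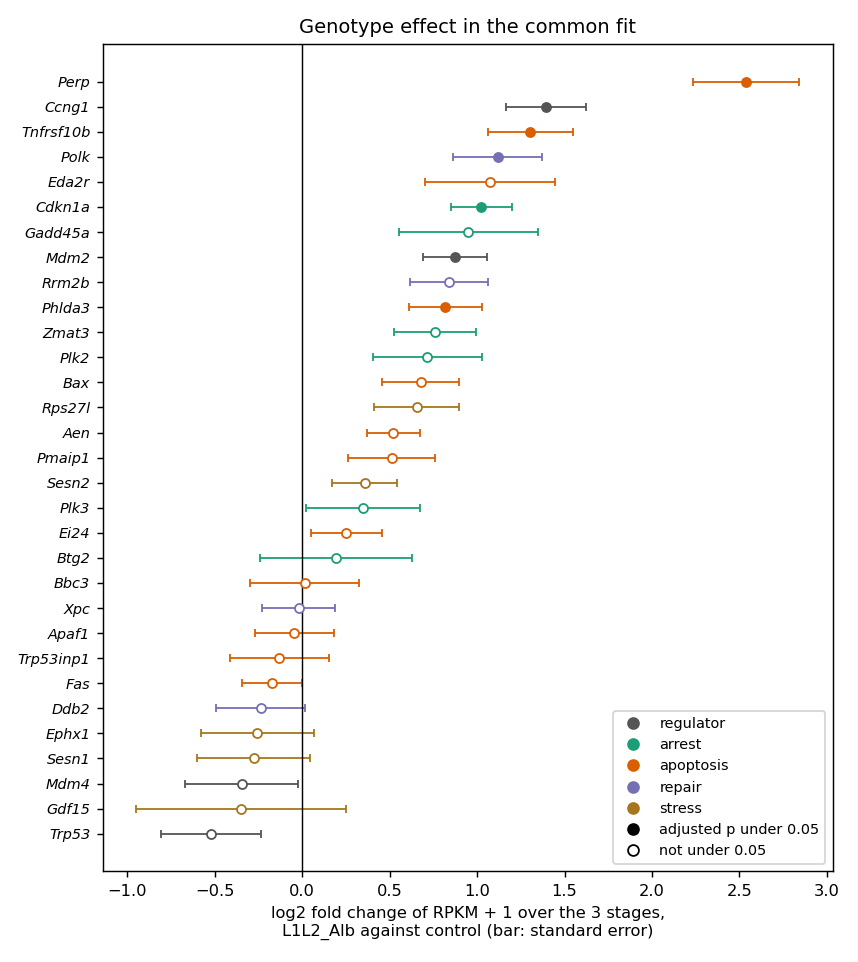
Log2 fold change of RPKM + 1 (x axis) in the fit over the 3 stages for each of the 31 genes (y axis), coloured by role, with bars for the standard error and filled points for an adjusted p under 0.05. The 7 filled points are all above 0, led by *Perp* at 2.54, and *Trp53* is lowest at -0.52.

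*Perp* encodes a membrane protein with 4 membrane spans that is induced by p53 in apoptosis and is also part of desmosomes in epithelia. Control iHBs had 61.9 RPKM and L1L2_Alb iHBs 338 RPKM of *Perp*. Control iHPs had 36.6 RPKM, and the L1L2_Alb iHPs 179 and 404 RPKM. Control iBECs had 17.6 RPKM, and the L1L2_Alb iBECs 69.7 and 119.7 RPKM. The 5 L1L2_Alb libraries lay above the 3 controls, and within each stage L1L2_Alb was 3.96 to 11.04 times the control in RPKM. The fit gave a log2 fold change of 2.54 (standard error, SE, 0.304, limma adjusted p = 0.00345), and the call held in 15 of 15 alternative settings, with an adjusted p of at most 0.0348. *Perp* was also the only one of the 31 genes called between stages, lower in iBECs than in iHBs by a log2 fold change of -1.86 (SE 0.379, limma adjusted p = 0.0287). That call was lost without L1L2_Alb iBEC replicate 1, with upper-quartile scaling and with no filter on low values.

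*Ccng1* encodes cyclin G1, a p53 target that acts back on MDM2. It was at 46.4 RPKM against 86.3 RPKM in iHBs, at 37.8 RPKM against 115 and 174 RPKM in iHPs and at 42.5 RPKM against 97.8 and 114 RPKM in iBECs, the control first in each stage. The controls lay within 37.8 and 46.4 RPKM and no L1L2_Alb library overlapped them. Its log2 fold change was 1.39 (SE 0.23, limma adjusted p = 0.0105), and 1.12 without iHPs, where the call was lost (adjusted p = 0.0752).

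*Mdm2* encodes the ubiquitin ligase that marks p53 for degradation. It was at 46.9 RPKM against 61.8 RPKM in iHBs, at 33.4 RPKM against 63.4 and 75.5 RPKM in iHPs and at 36.0 RPKM against 75.1 and 80.5 RPKM in iBECs. The groups did not overlap, and the smallest difference was in iHBs. The log2 fold change was 0.88 (SE 0.183, limma adjusted p = 0.0248). The call was lost without L1L2_Alb iBEC replicate 2 (0.84, adjusted p = 0.0586), without iHPs (0.79, adjusted p = 0.171) and without iBECs (0.75, adjusted p = 0.121).

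*Trp53* itself and *Mdm4* did not pass. *Trp53* was at 71.8 RPKM against 48.6 RPKM in iHBs, at 57.0 RPKM against 38.5 and 21.8 RPKM in iHPs and at 32.7 RPKM against 23.1 and 42.1 RPKM in iBECs. It was lower in 4 of 5 L1L2_Alb libraries, with a log2 fold change of -0.52 that did not pass (SE 0.286, limma adjusted p = 0.298), and RNA gives no measure of the p53 protein. *Mdm4*, a partner of MDM2 that masks the activating domain of p53, was at 22.4 RPKM against 10.6 RPKM in iHBs and at 17.9 RPKM against 10.7 and 8.78 RPKM in iHPs. In iBECs it was at 10.1 RPKM against 19.9 and 13.2 RPKM, the opposite direction, and the common fit gave -0.35 (SE 0.322, limma adjusted p = 0.555).

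**Figure D2:**
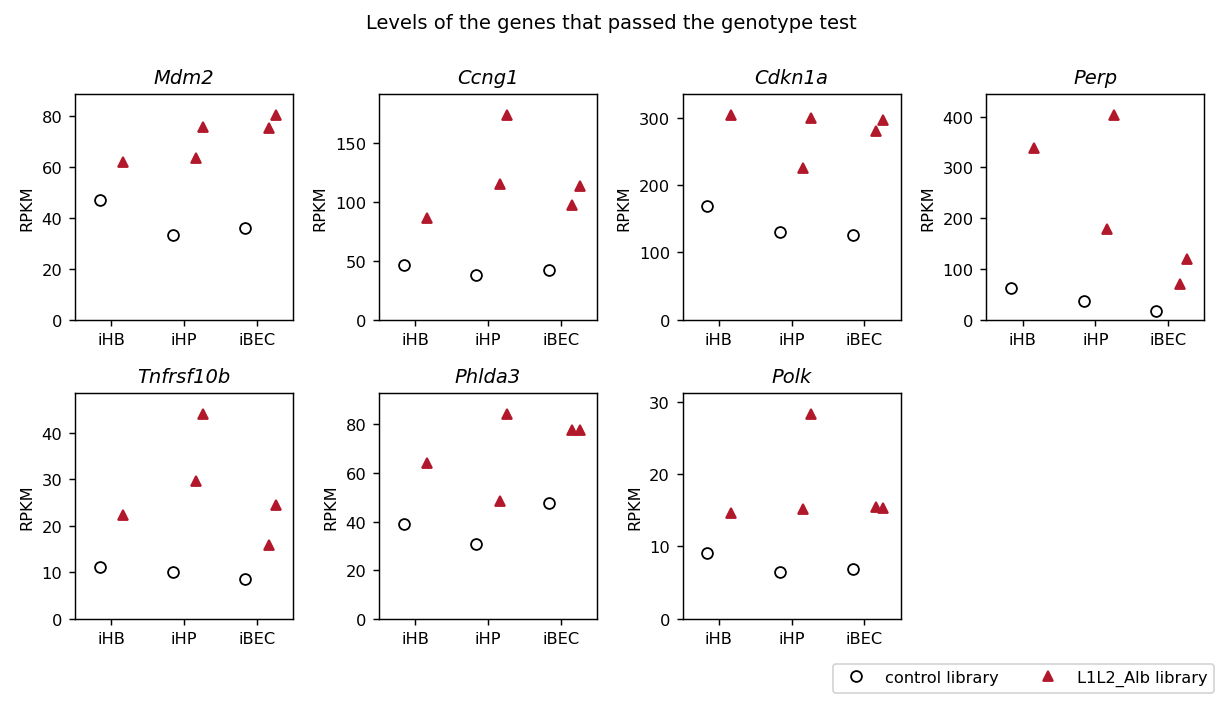
RPKM (y axis, linear from 0) of the 7 genes that passed the genotype test, by culture stage (x axis), with open circles for control libraries and triangles for L1L2_Alb libraries, 1 point per library. In each panel and stage the triangles lie above the circle, and L1L2_Alb iHP replicate 2 is the highest point of *Perp*, *Ccng1*, *Tnfrsf10b*, *Phlda3* and *Polk*.

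Among the arrest genes *Cdkn1a* passed the test, and the 6 genes had positive log2 fold changes, from 0.20 to 1.03. Of all 13421 genes tested, 7492 had positive log2 fold changes. *Cdkn1a*, whose product p21 inhibits cyclin-dependent kinases, was at 169 RPKM against 305 RPKM in iHBs, at 130.1 RPKM against 226 and 300.3 RPKM in iHPs and at 127 RPKM against 281 and 297 RPKM in iBECs. The L1L2_Alb libraries lay within 226 and 305 RPKM, apart from the controls and close to each other. Its log2 fold change was 1.03 (SE 0.175, limma adjusted p = 0.0117), and each fit on a pair of stages gave between 0.93 and 1.09 without a call, the adjusted p then being 0.061 to 0.0825. In GENCODE, 7.68% of its exonic bases lie opposite another gene, whose reads these libraries without strand could not separate.

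*Gadd45a*, a stress gene that binds PCNA and p21 and is also placed among repair genes, was at 33.0 RPKM against 50.6 RPKM in iHBs, at 30.8 RPKM against 41.1 and 161 RPKM in iHPs and at 27.1 RPKM against 48.0 and 46.8 RPKM in iBECs. L1L2_Alb iHP replicate 2 was far above the rest. The log2 fold change of 0.95 did not pass (SE 0.399, limma adjusted p = 0.175), and without that library it was 0.62 and passed (adjusted p = 0.0437). An antisense gene shares 19.1% of its exonic bases. *Zmat3*, a zinc-finger RNA-binding protein, was at 7.83 RPKM against 9.49 RPKM in iHBs, at 5.66 RPKM against 11.3 and 17.7 RPKM in iHPs and at 5.06 RPKM against 8.88 and 9.07 RPKM in iBECs, without overlap (0.76, limma adjusted p = 0.08).

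The other arrest genes were higher mainly in iBECs. The kinase gene *Plk2* was at 54.0 RPKM against 51.0 RPKM in iHBs and at 33.1 RPKM against 35.1 and 65.1 RPKM in iHPs. In iBECs *Plk2* was at 18.1 RPKM against 54.1 and 52.8 RPKM. *Btg2*, an antiproliferative gene, was lower in L1L2_Alb iHB, at 20.3 RPKM against 35.8 RPKM, and on either side of the control of 28.3 RPKM in iHPs, at 16.7 and 37.1 RPKM. In iBECs *Btg2* was at 20.6 RPKM against 75.3 and 36.3 RPKM, and *Plk3*, a kinase gene induced by stress, was at 9.70 RPKM against 31.1 and 15.8 RPKM. None of these passed in the common fit, where *Plk2* had a log2 fold change of 0.72 (adjusted p = 0.188), *Plk3* of 0.35 (adjusted p = 0.558) and *Btg2* of 0.20 (adjusted p = 0.826), all from limma.

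Among the 12 apoptosis genes 3 passed, all higher, where 6.20% of all genes tested were called higher. Positive log2 fold changes were found for 9 of the 12, against 7492 of all 13421 genes tested. The median of the 12 was 0.52. *Tnfrsf10b*, the death receptor for TRAIL in mice, was at 11.1 RPKM against 22.3 RPKM in iHBs, at 10.02 RPKM against 29.7 and 44.1 RPKM in iHPs and at 8.58 RPKM against 15.9 and 24.5 RPKM in iBECs. The groups did not overlap and the 3 controls were close together. Its log2 fold change was 1.30 (SE 0.243, limma adjusted p = 0.0162), with the call lost without iHBs (1.44, adjusted p = 0.0598) or iHPs (1.05, adjusted p = 0.116). *Phlda3*, which competes with AKT for membrane lipids, was at 38.8 RPKM against 63.9 RPKM in iHBs, at 30.7 RPKM against 48.4 and 84.3 RPKM in iHPs and at 47.8 RPKM against 77.8 and 77.5 RPKM in iBECs. The lowest L1L2_Alb library was only just above the highest control, and the call of 0.82 (SE 0.21, limma adjusted p = 0.0473) was kept in 6 of 15 alternatives. It was lost without L1L2_Alb iBEC replicate 1 (adjusted p = 0.0716) or replicate 2 (adjusted p = 0.0886) and without any of the stages. Upper-quartile scaling (limma adjusted p = 0.0767), quantile normalization (limma adjusted p = 0.0723), no filter on low values and no trended prior also lost it.

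*Eda2r*, a receptor for ectodysplasin A2, had the lowest median over the controls of the 31 genes. It was at 2.82 RPKM against 4.27 RPKM in iHBs, at 1.98 RPKM against 4.45 and 14.9 RPKM in iHPs and at 2.24 RPKM against 5.01 and 5.55 RPKM in iBECs. The groups were apart, but L1L2_Alb iHP replicate 2 was again by far the highest. The log2 fold change was 1.07 (SE 0.371, limma adjusted p = 0.109), and without that library it was 0.78 and passed (adjusted p = 0.0476). *Bax*, which opens the outer mitochondrial membrane, was at 113 RPKM against 164 RPKM in iHBs, at 81.7 RPKM against 116 and 179.9 RPKM in iHPs and at 91.4 RPKM against 116 and 178 RPKM in iBECs, without overlap (0.68, limma adjusted p = 0.0917). *Aen*, a nuclease gene, was higher in 5 of 5 libraries, at 29.3 to 46.5 RPKM against 23.6 to 30.8 RPKM in the controls, with a log2 fold change of 0.52 (adjusted p = 0.0716).

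*Pmaip1*, which encodes the BH3-only protein NOXA, was higher in L1L2_Alb iHBs and iHPs and not in iBECs. It was at 39.5 RPKM against 66.4 RPKM in iHBs, at 81.0 RPKM against 200.1 and 119 RPKM in iHPs and at 82.7 RPKM against 78.0 and 79.9 RPKM in iBECs. The log2 fold change over the stages was 0.51 (limma adjusted p = 0.243). The other BH3-only gene, *Bbc3* (PUMA), was at 7.36 RPKM against 4.94 RPKM in iHBs and at 4.52 RPKM against 2.498 and 7.15 RPKM in iHPs. In iBECs *Bbc3* was at 5.82 RPKM against 7.92 and 8.85 RPKM, and its log2 fold change of 0.015 (limma adjusted p = 0.984) changed sign in 6 of 15 alternatives. *Apaf1*, the core of the apoptosome, the death receptor *Fas*, *Ei24* and *Trp53inp1* had log2 fold changes from -0.17 to 0.25 with adjusted p from 0.485 to 0.93. *Fas* was lower in 4 of 5 libraries, in contrast to *Tnfrsf10b*, the other death receptor, although the difference between the 2 genes was not tested.

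The 4 repair genes divided into pairs. *Polk*, a polymerase that copies past damaged bases, was at 9.13 RPKM against 14.6 RPKM in iHBs, at 6.42 RPKM against 15.2 and 28.4 RPKM in iHPs and at 6.91 RPKM against 15.5 and 15.4 RPKM in iBECs. The groups were apart, and the log2 fold change was 1.12 (SE 0.256, limma adjusted p = 0.033), called in 8 of 15 alternatives. The call was lost without L1L2_Alb iBEC replicate 1 (adjusted p = 0.0539) or replicate 2 (adjusted p = 0.0702) and without any of the stages. No filter on low values and averaged libraries also lost it. *Rrm2b*, the p53-inducible subunit of ribonucleotide reductase, was at 2.87 RPKM against 4.55 RPKM in iHBs, at 2.83 RPKM against 6.38 and 9.54 RPKM in iHPs and at 1.99 RPKM against 3.87 and 3.99 RPKM in iBECs. It did not overlap either and lay at the threshold (0.84, SE 0.223, limma adjusted p = 0.0522).

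*Ddb2* and *Xpc*, which recognise damage for nucleotide excision repair, were not higher in iHBs and iHPs. *Ddb2* was at 9.39 RPKM against 5.35 RPKM in iHBs, at 7.41 RPKM against 4.16 and 5.44 RPKM in iHPs and at 4.87 RPKM against 7.53 and 6.29 RPKM in iBECs. *Xpc* was at 15.1 RPKM against 12.03 RPKM, at 12.7 RPKM against 11.5 and 9.42 RPKM, and at 5.56 RPKM against 8.28 and 7.49 RPKM in the same stages. Both thus lay below the control in 3 L1L2_Alb libraries and above it in the 2 of iBECs, with log2 fold changes over the stages of -0.24 (adjusted p = 0.616) and -0.02 (limma adjusted p = 0.966). *Acp2*, on the opposite strand, shares 23.8% of the exonic bases of *Ddb2*.

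The stress genes passed in no case, with 2 of the 5 higher and a median of -0.26. In the same fit 7492 of all 13421 genes tested were higher, with a median of 0.058. *Rps27l*, a ribosomal protein gene induced by p53, was at 268 RPKM against 322 RPKM in iHBs, at 252 RPKM against 367 and 673 RPKM in iHPs and at 262 RPKM against 391 and 419 RPKM in iBECs. The controls lay within 252 and 268 RPKM and did not overlap the L1L2_Alb libraries, and the log2 fold change was 0.65 (SE 0.245, limma adjusted p = 0.133). Its near copy *Rps27*, whose reads the counting may have split, had a log2 fold change of 0.43 (limma adjusted p = 0.338). *Gdf15*, which encodes a secreted stress cytokine, was at 17.5 RPKM against 3.67 RPKM in iHBs, at 16.1 RPKM against 4.95 and 18.7 RPKM in iHPs and at 12.8 RPKM against 45.2 and 20.4 RPKM in iBECs. It had the widest spread of the 31 genes in the fit, with a log2 fold change of -0.35 and a standard error of 0.60.

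*Sesn1*, a sestrin that restrains mTORC1, was at 8.15 RPKM against 3.60 RPKM in iHBs, at 5.63 RPKM against 2.48 and 4.14 RPKM in iHPs and at 5.05 RPKM against 9.69 and 7.28 RPKM in iBECs. *Sesn2*, the other sestrin of the list, was higher in 4 of 5 libraries, with 14.6 to 24.9 RPKM against 13.02 to 18.7 RPKM in the controls. *Ephx1*, an epoxide hydrolase of hepatocyte detoxification, was at 84.8 RPKM against 37.4 RPKM in iHBs, at 67.8 RPKM against 46.8 and 66.2 RPKM in iHPs and at 61.7 RPKM against 116 and 61.5 RPKM in iBECs. None of the 3 passed, with adjusted p from 0.277 to 0.677.

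**Figure D3:**
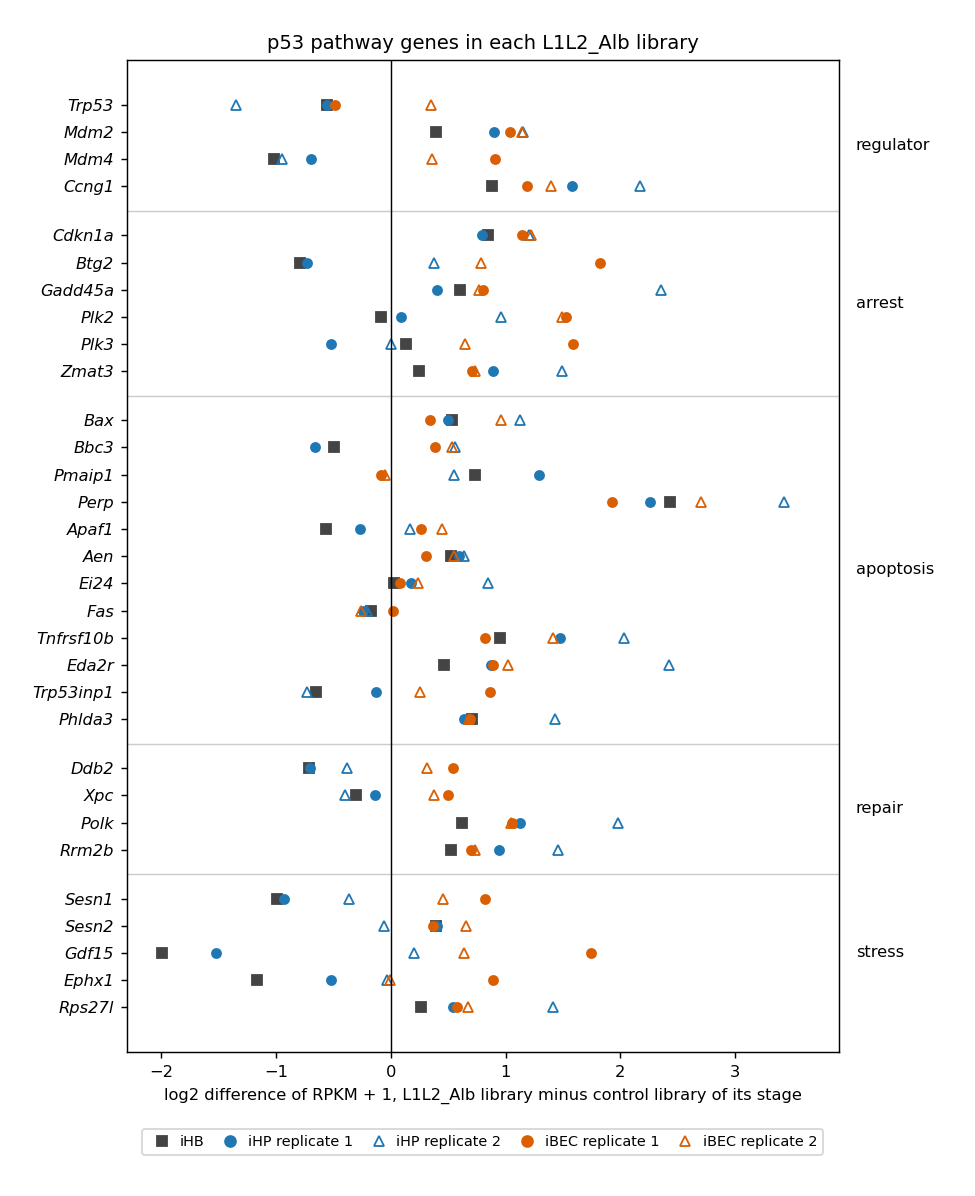
Log2 difference of RPKM + 1 (x axis) between each L1L2_Alb library and the control library of its stage, for the 31 genes (y axis) grouped by role; squares are iHBs, circles replicate 1 and triangles replicate 2 of iHPs and iBECs. *Perp*, *Ccng1*, *Cdkn1a*, *Tnfrsf10b* and *Polk* have 5 points right of 0, while *Mdm4*, *Ddb2*, *Xpc*, *Sesn1* and *Trp53inp1* have iHB and iHP points left of it and iBEC points right of it.

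By library, 15 of the 31 genes were higher in 5 of 5 L1L2_Alb libraries (48.4%, against 22.9% of all genes tested) and 0 were lower in 5 of 5 (10.1% of all genes). In 13 of them (41.9%, against 9.18%) the 5 L1L2_Alb libraries lay above the 3 controls without overlap, and in 0 below (3.70% of all genes). These 13 were *Mdm2*, *Ccng1*, *Cdkn1a*, *Gadd45a*, *Zmat3*, *Bax*, *Perp*, *Tnfrsf10b*, *Eda2r*, *Phlda3*, *Polk*, *Rrm2b* and *Rps27l*, which held members of each role. Reads of overlapping genes could add to some values, since 12.2% of the exonic bases of *Bax*, 8.04% of *Rrm2b*, 6.66% of *Ei24*, 3.69% of *Ephx1* and 3.32% of *Plk3* lie within exons of another gene.

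In single stages there was 1 control library, so that differences are given without a test and the 2 L1L2_Alb libraries of iHPs or iBECs share that control. In iHBs 18 of the 31 genes were higher (42.9% of all genes tested), and the median log2 difference of the list was 0.25, while that of all genes was -0.086. The apoptosis genes had a median of 0.49, the arrest genes of 0.19 and the repair genes of 0.11, and the stress genes were lower, with a median of -0.99. The order of roles depended on the assignment. With *Gadd45a* among the repair genes and *Ccng1* among the arrest genes, the repair median was 0.52 and the arrest median 0.19. *Perp* was the only gene over 1 on the log2 scale (5.60% of all genes). It was followed by *Tnfrsf10b* (0.95), *Ccng1* (0.88), *Cdkn1a* (0.85) and *Pmaip1* (0.73). Without the apoptosis genes the median of the remaining 19 genes was 0.13, and without the arrest genes that of the remaining 25 was 0.27. Of the 12 apoptosis genes 8 were higher in iHBs, and of the 6 arrest genes 4.

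In iHPs 17 genes were higher in both L1L2_Alb libraries (35.5% of all genes tested), 8 were lower in both (35.9%) and 10 had a mean log2 difference over 1 (7.71% of all genes). They were 4 of the 12 apoptosis genes, 2 of 6 arrest genes, 2 of 4 repair genes and 2 of 4 regulators. The median of the list was 0.52 (SD 0.17 between the medians of the 2 libraries) and that of all genes was -0.0073. The apoptosis genes had a median of 0.72, with 0.55 and 0.74 in the 2 libraries, and the repair genes one of 0.47, with 0.40 and 0.54. A filter at a mean of 5 RPKM, which drops *Rrm2b*, turned the repair median to -0.27 in iHPs and to -0.30 in iHBs. With *Gadd45a* among the repair genes and *Ccng1* among the arrest genes, the repair median in iHPs was 1.20, above that of the apoptosis genes. The arrest genes had a median of 0.76, with 0.25 in replicate 1 and 1.08 in replicate 2, so that the size of their difference depended on L1L2_Alb iHP replicate 2. Of the 6 arrest genes 4 were higher in replicate 1 and 6 in replicate 2, against 51.15% and 48.38% of all genes tested. Without replicate 2 the list had a median of 0.41. Without the apoptosis genes the list had a median of 0.17 in iHPs, and without the arrest genes one of 0.51. The largest mean differences were those of *Perp* (2.85), *Ccng1* (1.88), *Tnfrsf10b* (1.75), *Eda2r* (1.65) and *Polk* (1.55).

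In replicate 2 of these iHPs the log2 differences from the control were largest for *Perp* (3.43), *Eda2r* (2.42) and *Gadd45a* (2.354). *Perp* and *Gadd45a* are among the 2519 shortest genes, which were higher in that library. Of the 4 of the 31 genes that are among the longest, *Zmat3* was at 17.7 RPKM in replicate 2 against 11.3 RPKM in replicate 1, *Rrm2b* at 9.54 against 6.38 RPKM, *Apaf1* at 8.97 against 6.39 RPKM and *Mdm4* at 8.78 against 10.7 RPKM.

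In iBECs 27 genes were higher in both L1L2_Alb libraries, but so were 62.2% of all genes tested, whose median was 0.25. The list had a median of 0.65 (SD 0.10). The arrest genes led with a median of 1.15, with 1.34 in replicate 1 and 0.78 in replicate 2, and the 6 were higher in both. Of the 10 genes with a mean over 1 (6.67% of all genes), 4 were arrest genes, *Plk2* (1.51), *Btg2* (1.30), *Cdkn1a* (1.18) and *Plk3* (1.12), beside *Perp* (2.31), *Ccng1* (1.29), *Gdf15* (1.19), *Tnfrsf10b* (1.12), *Mdm2* (1.09) and *Polk* (1.05). The stress genes had a median of 0.62, against -0.99 in iHBs. Without the apoptosis genes the median of the list was 0.72, and without the arrest genes 0.62. After quantile normalization, which sets the median of all genes near 0, the list still lay above 0, with a median of 0.24 for iHBs, 0.33 for iHPs and 0.41 for iBECs.

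**Figure D4:**
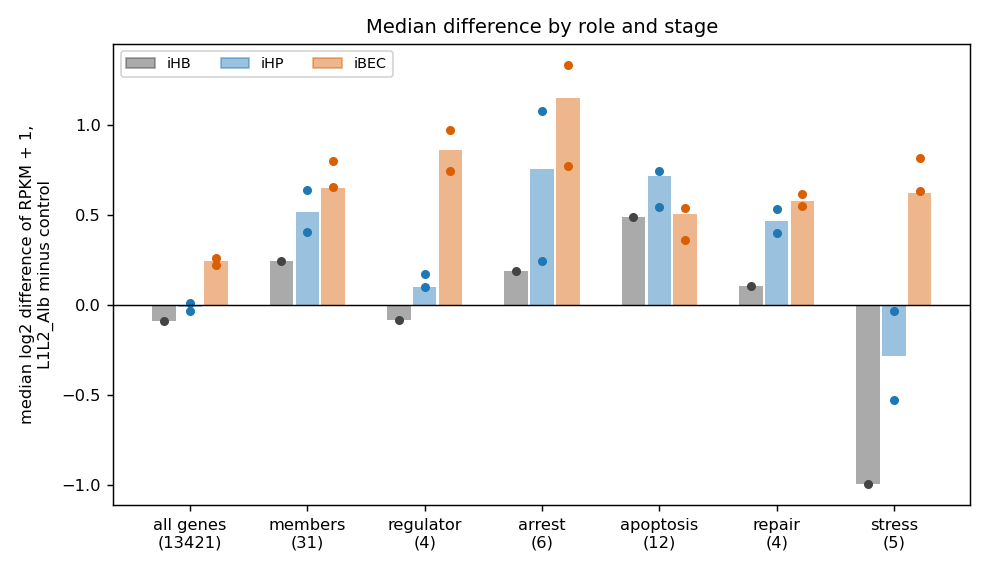
Median log2 difference of RPKM + 1 between L1L2_Alb and control (y axis, bars) for all genes tested, the 31 genes and each role (x axis, number of genes in parentheses), by stage, with points for the single libraries. The apoptosis bars stand at 0.49, 0.72 and 0.51, the arrest bars at 0.19, 0.76 and 1.15, and the stress bars go from -0.99 to 0.62.

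A total of 10 genes were lower in L1L2_Alb iHBs and higher in both L1L2_Alb iBEC libraries (32.3%, against 28.5% of all genes tested), a share near that of all genes. Of these, *Mdm4*, *Ddb2*, *Xpc*, *Sesn1* and *Trp53inp1* were also lower in both iHP libraries (16.1%, against 12.4%). *Trp53inp1*, whose product enhances p53 activity, was at 45.2 RPKM against 28.5 RPKM in iHBs, at 38.2 RPKM against 35.0 and 22.6 RPKM in iHPs and at 15.4 RPKM against 28.9 and 18.5 RPKM in iBECs. The test of whether the genotype effect differed between stages, limma's moderated F test over the 6 conditions (residual degrees of freedom, 2), called 0 of the 31 genes and 0 of the 13421 (smallest adjusted p = 0.122). At an unadjusted p under 0.05 there were 1 of the 31, *Mdm4* (adjusted p = 0.877), and 5.46% of all genes.

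**Figure D5:**
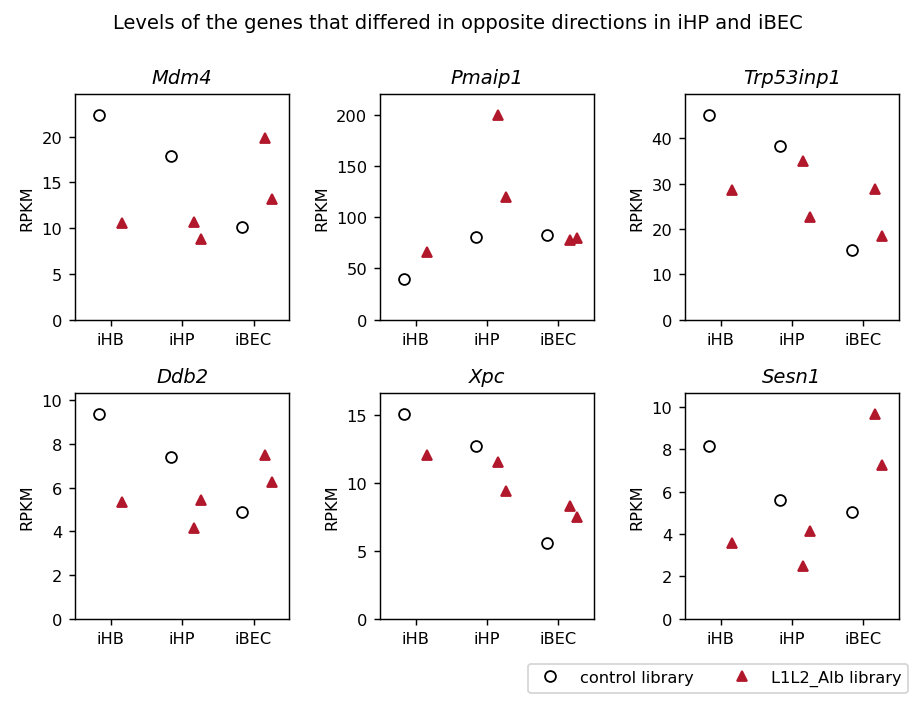
RPKM (y axis, linear from 0) by stage (x axis) of the 6 genes whose L1L2_Alb libraries (triangles) lay on one side of the control (open circle) in iHPs and on the other in iBECs. *Mdm4*, *Ddb2*, *Xpc*, *Sesn1* and *Trp53inp1* lie below the control in iHBs and iHPs and above it in iBECs, and *Pmaip1* above it in iHBs and iHPs and just below it in iBECs.

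Between stages, with genotype in the same fit, 0 of the 31 genes were called for iHPs against iHBs, as were 0 of all genes, and 2 had an unadjusted p under 0.05 (8.63% of all genes), *Pmaip1* with a log2 fold change of 1.18 (adjusted p = 0.404) and *Fas* with one of -0.73 (adjusted p = 0.422, limma). For iBECs against iHBs 1 of the 31 was called, *Perp*, against 5.72% of all genes, 2.78% being lower. The median log2 fold change of the 31 genes between these stages was -0.15 and that of all genes -0.25. In control cells the highest levels per length were those of *Rps27l*, *Cdkn1a* and *Bax*, with medians of 262, 130.1 and 91.4 RPKM over the 3 libraries, and the lowest those of *Eda2r* and *Rrm2b*, with 2.24 and 2.83 RPKM.

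Of 18 further genes, regulators or relatives of p53, 16 were tested. Of these 1 was called higher and 1 lower (12.5%, against 9.57% of all genes tested). *Cdkn2a*, whose locus encodes the MDM2 inhibitor ARF and the kinase inhibitor p16, rose from 18.7 to 106 RPKM in iHBs, from 11.5 to 82.5 and 148 RPKM in iHPs and from 27.0 to 76.9 and 146 RPKM in iBECs. The 5 L1L2_Alb libraries were above the controls (log2 fold change 2.52, SE 0.323, limma adjusted p = 0.00439), and a value per gene does not separate the 2 products. *H2afx*, the histone variant phosphorylated at DNA breaks, fell in 5 of 5 libraries (-0.89, SE 0.219, limma adjusted p = 0.0406). Of 26 further p53 targets, 2 of them listed under older symbols, all were tested. None of them was called by limma, with 4 higher and 3 lower at an unadjusted p under 0.05, and their median log2 fold change was -0.012 against 0.51 for the 31 genes.

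Other markers moved between the libraries, and their part in these results was not tested. In bulk RNA fewer cells of a type and less RNA per cell cannot be told apart. For the counts below, 3.37% of all genes tested were called lower and 6.20% higher. In 5 of 5 libraries 10.1% were lower and 22.9% higher. At an unadjusted limma p under 0.05, 1375 of the 13421 genes tested were lower. Of the 8 hepatocyte markers 5 were called lower, each in 5 of 5 libraries, namely *Serpina1a* (log2 fold change -2.42, limma adjusted p = 0.0391), *Ttr* (-1.95, limma adjusted p = 0.00445), *Alb* (-1.71, limma adjusted p = 0.0337), *Fgb* (-1.53, limma adjusted p = 0.0205) and *Hnf4a* (-1.33, limma adjusted p = 0.00373), and 0 higher. Their sum was 10470 RPKM against 9811 RPKM in iHBs, the control first, 23500 RPKM against 14230 and 13480 RPKM in iHPs and 31660 RPKM against 17550 and 17510 RPKM in iBECs, with none at 0. The near-equal sums in iHBs rested on *Apoa1*, singled out after its values were seen, which was at 2451 RPKM against 8670 RPKM there, while *Alb* was at 2485 RPKM against 524 RPKM. Of the 6 biliary markers, none of them at 0, the keratin genes *Krt7* (log2 fold change 2.17, limma adjusted p = 0.00422) and *Krt19* (1.31, limma adjusted p = 0.0205) were called higher in 5 of 5 libraries, and *Spp1* was called lower (-1.50, limma adjusted p = 0.0306). Their sum, most of it *Spp1* in iBECs, was 2589 RPKM against 2482 RPKM in iHBs, 3872 RPKM against 3049 and 3901 RPKM in iHPs and 23470 RPKM against 6709 and 11820 RPKM in iBECs. The 6 fibroblast markers, of which 0 were called by limma and 5 were lower at an unadjusted p under 0.05, summed to 1194 RPKM in L1L2_Alb iHB against 3833 RPKM, to 650.3 and 1020 RPKM against 2367 RPKM in iHPs and to 3265 and 1540 RPKM against 2484 RPKM in iBECs. *Mdm4*, *Ddb2*, *Xpc*, *Sesn1* and *Trp53inp1* were lower than the control in the same 3 libraries of iHBs and iHPs as that sum. In iBECs these genes were higher in both L1L2_Alb libraries, while the sum was higher in replicate 1 and lower in replicate 2. The genes were picked by their directions in these libraries, which 12.4% of all genes tested shared, and a link to the sum was not tested. The 6 leukocyte markers, of which 0 were called by limma and 1 was lower at an unadjusted p under 0.05, summed to 2125 RPKM against 1735 RPKM in iHBs, to 1410 RPKM against 673.5 and 1254 RPKM in iHPs and to 1136 RPKM against 2470 and 2691 RPKM in iBECs. That sum, like *Mdm4*, *Ddb2*, *Xpc*, *Sesn1* and *Trp53inp1*, lay below the control in iHBs and iHPs and above it in iBECs. A link to the leukocyte sum was not tested either. Of the 5 erythroid markers 2 were tested and 1 was called. It was the haemoglobin gene *Hbb-b1*, lower in 5 of 5 libraries (-2.09, limma adjusted p = 0.0335). In iBECs *Hbb-b1* was low in all libraries, at 0.91 RPKM against 0.24 and 0.40 RPKM. The sum of the 5 was 108.4 RPKM against 22.29 RPKM in iHBs and 70.11 RPKM against 6.824 and 15.65 RPKM in iHPs. In iBECs it was 2.864 RPKM against 1.795 and 3.253 RPKM. The 5 endothelial markers summed to at most 5.502 RPKM in any library. *Emcn* was listed at 0 in L1L2_Alb iHP replicate 2.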

How the data were processed

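RNA was sequenced in 8 libraries of cultured mouse liver cells, prepared with a kit that does not mark strand. The authors deposited 1 table of RPKM values per gene and library. The unit was not named in the table and was inferred from the values, since low values were whole multiples of what 1 read is worth after division by gene length. Submitters' processing notes name Bowtie 0.12.2 and the build mm8. The counting method is not given in the sources used here. Of 23471 rows, 4 rows with duplicated symbols were dropped.

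The test was limma 3.58.1 (R 4.3.3) with a trended prior on log2(RPKM + 1), with terms for stage and genotype, for 13421 genes (mean of 1 RPKM or more). Every log2 fold change is on that scale, which understates the change of low genes. Benjamini-Hochberg adjustment was over all genes tested, and an adjusted p under 0.05 was called. Control cells had 1 library in each stage, so 4 residual degrees of freedom come from the additivity of stage and genotype and the 2 pairs of L1L2_Alb libraries. Stage-specific effects were tested with a term for each of the 6 conditions, 2 residual degrees of freedom. Before use the tests were run on simulated data with independent noise in each library. Such data cannot show how the tests behave where libraries are not independent. The 31 genes, their roles and the other lists were chosen with earlier results of these data known. All 31 genes were named, and from the other lists the called genes, at most 5 in each direction, besides the *Lats1*, *Lats2* and *Rps27* values, and *Apoa1* and *Emcn* were named after their values were seen. *Tigar* and *Pidd1* were found under the symbols 9630033F20Rik and Lrdd. Promoter windows and exon overlaps came from RefSeq and GENCODE on GRCm38, a later build than that of the files. Plots were drawn with matplotlib 3.10.9. Alternatives were a pseudocount of 0.1, upper-quartile and quantile scaling, no filter, a mean of at least 5 RPKM, no trended prior, each replicate or stage left out, averaged libraries, a threshold of 0.1 and another assignment of *Ccng1* and *Gadd45a* to roles.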

Additional observations from a re-analysis of the deposited data

Results flagged for a closer look

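A set of 6 p53 pathway genes differed from the control in opposite directions in the 2 differentiated stages, both L1L2_Alb iHP libraries lying on one side of their control and both iBEC libraries on the other. The genotype effect in iHPs minus that in iBECs, on the log2 scale, was -1.46 for *Mdm4* (standard error, SE, 0.553, limma adjusted p = 0.589), -1.28 for *Sesn1* (SE 0.587, adjusted p = 0.72) and -0.99 for *Trp53inp1* (SE 0.61, adjusted p = 0.873). It was -0.97 for *Ddb2* (SE 0.529, adjusted p = 0.8), -0.70 for *Xpc* (SE 0.504, adjusted p = 0.923) and 0.99 for *Pmaip1* (SE 0.585, adjusted p = 0.848). None passed limma's test of this difference, nor did any of the 13421 genes (smallest adjusted p = 0.0837). Only *Mdm4* of the 31 genes had an unadjusted p under 0.05 in that test, as did 1014 of all genes. The median difference of all genes tested was 0.25 in iBECs and -0.0073 in iHPs. No condition had the 4 libraries needed to look for a library far from its group.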

How the results depend on the processing

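No paired analysis was possible because each stage has 1 control library and the numbers in the labels do not pair libraries of different groups. The 7 calls became 11 with a threshold of 0.1, 3 without iHBs, 3 without iBECs and 1 without iHPs, and 4 to 9 with 1 library left out, with 4 without L1L2_Alb iBEC replicate 2. The 1284 calls over all genes became 2215, 326, 132 (without iHPs) and 686 with no filter, and 792 to 1214 with 1 library left out. The call of *Perp* for iBECs against iHBs became 0 calls with upper-quartile scaling, with no filter and with 1 library left out (0 to 1). The median of the 31 genes in iBECs became 0.47 with upper-quartile scaling and 0.41 with quantile normalization, and 0.66 to 0.80 with 1 library left out, and in iHPs 0.33 with quantile normalization and 0.41 to 0.64 with 1 library left out. Medians that changed sign were those of the regulators in iHPs (-0.82 with *Ccng1* among the arrest genes, -0.011 with upper-quartile scaling), of the repair genes at a mean of 5 RPKM, which leaves out *Rrm2b* (-0.30 in iHBs, -0.27 in iHPs), and of all genes (0.0092, 0.053 and -0.011 in iHBs, iHPs and iBECs with quantile normalization, 0.059 in iHPs at 5 RPKM). *Mdm2* missed the threshold with averaged libraries (adjusted p = 0.0572 from limma).

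No called gene changed sign. Among the other genes *Bbc3* became -0.080 with upper-quartile scaling, -0.24 without iBECs and -0.028 with averaged libraries. Without iHBs the log2 fold changes were 0.15 for *Apaf1*, 0.065 for *Trp53inp1*, 0.085 for *Xpc*, 0.27 for *Gdf15* and 0.083 for *Ephx1*. Without iHPs they were 0.042 for *Trp53inp1* and 0.12 for *Xpc*, and without iBECs -0.44 for *Btg2* and -0.090 for *Plk3*. With 1 library left out they ranged from -0.16 to 0.20 for *Bbc3*, from -0.11 to 0.022 for *Apaf1*, from -0.085 to 0.044 for *Xpc* and from -0.071 to 0.40 for *Btg2*. Of the values of single genes under the alternatives, 411 kept direction and side of the threshold, 26 lost the call, 9 gained it and 18 changed sign. The cause of these changes was not tested.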

Other observations

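A list of 24 cell-cycle genes, many of them genes that p53 and p21 repress through the DREAM complex, was mostly lower in L1L2_Alb libraries. Of these 13 were called lower (54.2%, against 3.37% of all genes tested) and 0 higher, and 21 were lower in 5 of 5 libraries (10.1% of all genes tested). The median log2 fold change was -1.05, with 23 genes lower in the fit and 1 higher, the latter at an unadjusted limma p under 0.05. Among the called genes the 5 with the largest changes were *Top2a*, the DNA topoisomerase of dividing cells (-1.44, adjusted p = 0.0272), the replication helicase genes *Mcm6* (-1.32, adjusted p = 0.0324) and *Mcm5* (-1.28, adjusted p = 0.0392), *Birc5*, which encodes survivin (-1.22, adjusted p = 0.0211), and the mitotic cyclin gene *Ccnb2* (-1.19, adjusted p = 0.0402), all from limma. These genes fell in the libraries in which *Cdkn1a* was at 226 to 305 RPKM. Whether the changes are linked was not tested.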
